A study of Mus musculus with 11 samples.

Results

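The interleukin 1 (IL-1) family and the inflammasome were followed as 10 genes in the gonadal white fat of mice lacking 14-3-3ζ. They were the ligands Il1a, Il1b, Il18 and Il33, the antagonist Il1rn, the signalling receptor Il1r1 with its partner Il1rap, the decoy receptor Il1r2, and the inflammasome genes Nlrp3 and Casp1. Members were taken by symbol from the table of group values, where each of the 10 matched 1 row except Il1r2, which matched 2, among 42815 loci in all. RNA came from 5 14-3-3ζKO and 6 wild-type samples of male C57Bl/6 mice, aged 50 weeks in both groups. The 14-3-3ζKO mice carried null alleles of Ywhaz, the gene of 14-3-3ζ, and littermates served as controls. The labels give standard chow for both groups, and the study describes the same comparison as low-fat feeding. Expression was measured as FPKM, fragments per kilobase of transcript scaled to the number of mapped fragments. For all loci 1 FPKM value per genotype was used, without replicates. For 86 loci there was 1 value per library, and all 86 were loci that the study's own comparison had marked as different. Il1rn was the 1 member among them. The other 9 members therefore had no measure of error, and no test was made on them. The methods state a read number without saying whether it holds for each library, so the depth of single libraries is unknown.

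IL-1α and IL-1β signal through the receptor encoded by Il1r1, which recruits the accessory protein encoded by Il1rap and then the adaptor Myd88 to activate NF-kB. The antagonist encoded by Il1rn occupies the same receptor without recruiting the accessory protein, and the decoy receptor encoded by Il1r2 binds ligand but cannot signal. IL-1β and IL-18 are made as inactive precursors that caspase-1 cleaves once a sensor such as NLRP3 has assembled an inflammasome with the adaptor encoded by Pycard. White fat is a known source of the antagonist, and macrophages are among the main producers of IL-1β.

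The targeted gene and the makeup of the tissue were examined first. Ywhaz ranged over 14.5 to 38.2 FPKM in 14-3-3ζKO libraries and over 94.2 to 118.3 FPKM in wild-type libraries, without overlap. Adipocyte genes were abundant in both groups, with Fabp4, the adipocyte fatty acid carrier, at 31136 FPKM in 14-3-3ζKO and 13823 FPKM in wild-type tissue and Cfd, the adipokine adipsin, at 7755 FPKM in 14-3-3ζKO and 1899 FPKM in wild-type tissue. Among markers with a mean of at least 1 FPKM, differences of at least 2-fold on the log2(FPKM + 1) scale were found in 14-3-3ζKO tissue for 9 of 10 macrophage markers, all lower, and for 5 of 6 mast cell markers, all lower. The highest of these were the macrophage lysozyme Lyz2 (334.5 FPKM in 14-3-3ζKO and 2311 FPKM in wild-type tissue) and complement gene C1qa (99.1 FPKM in 14-3-3ζKO and 395.0 FPKM in wild-type tissue), and the mast cell proteases Cma1 (5.71 FPKM in 14-3-3ζKO and 38.7 FPKM in wild-type tissue) and Tpsb2 (4.79 FPKM in 14-3-3ζKO and 33.4 FPKM in wild-type tissue). The mast cell marker Fcer1a (0.438 FPKM in 14-3-3ζKO and 5.64 FPKM in wild-type tissue) passed the floor only through its wild-type value. Of 4 neutrophil markers, 2 were higher. Of 7 adipocyte markers, 2 were higher and 1 lower (Lep, the hormone leptin, 278.4 FPKM in 14-3-3ζKO and 578.9 FPKM in wild-type tissue), and of 5 mesothelial markers 1 was higher (Krt19, 96.6 FPKM in 14-3-3ζKO and 31.7 FPKM in wild-type tissue). Whatever the size, all 5 mesothelial markers had a higher group value in 14-3-3ζKO tissue. Their median log2 difference was 0.94, against 0.02 for all named loci. For dendritic cells 1 of 4 was lower (Itgax, 5.99 FPKM in 14-3-3ζKO and 49.1 FPKM in wild-type tissue), for T and innate lymphoid cells 1 of 6 (Il7r, 3.11 FPKM in 14-3-3ζKO and 15.5 FPKM in wild-type tissue) and for stromal progenitors 1 of 6 (Lum, 17.0 FPKM in 14-3-3ζKO and 63.8 FPKM in wild-type tissue). None of the 5 endothelial markers passed 2-fold. These counts stand beside 14189 named loci above the same floor, of which 4.33% were at least 2-fold lower and 7.85% at least 2-fold higher.

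The members lie on several chromosomes of build NCBIM37. Il1rn (chromosome 2, 24192373 to 24207014, plus strand), Il1a (chromosome 2, 129125346 to 129135708, minus strand) and Il1b (chromosome 2, 129190306 to 129196875, minus strand) share a chromosome, with Il1a and Il1b as neighbours. Il1r1 (chromosome 1, 40281925 to 40373043, plus strand) and Il1r2 (chromosome 1, 40141613 to 40182064, plus strand) form a second pair. Casp1 (chromosome 9, 5298517 to 5307265), Il18 (chromosome 9, 50383378 to 50389942), Il33 (chromosome 19, 29999604 to 30035194), Nlrp3 (chromosome 11, 59355070 to 59380458) and Il1rap (chromosome 16, 26581790 to 26730203) lie on the plus strand, and all 10 are annotated as protein coding. Il1a, Il1b, Il1rap and Il1r2 overlap annotated genes on the opposite strand (Gm14023, Gm14047, RP24-345H5.2 and Gm16894). No source used here says whether counting used strand, so reads of these genes cannot be told apart from those of the members, and these 4 values are uncertain. The deposited locus of Il18 also spans Bco2 and Tex12, which lie beside Il18 and not over it. Gm14023, antisense to Il1a, was listed separately at 0.942 FPKM in 14-3-3ζKO and 0.998 FPKM in wild-type tissue, above Il1a itself (0.372 FPKM in 14-3-3ζKO and 0.490 FPKM in wild-type tissue). Gm14047, antisense to Il1b, was listed separately at 0.158 FPKM in 14-3-3ζKO and 0.0269 FPKM in wild-type tissue, and Gm16894, antisense to Il1r2, at 0.0255 FPKM in 14-3-3ζKO and 0.149 FPKM in wild-type tissue.

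Promoters are shown for the members past 2-fold between the group values (Il1rn and Casp1 on the lower side, Il1r2 on the higher side in 14-3-3ζKO tissue) and for Il1b, the ligand that Il1rn opposes. The sequences are the 150 bases before each annotated start, from RefSeq on build GRCm38.p6, 5′ to 3′ on the strand of the gene, with 2 of the annotated starts of Il1rn. Capitals mark GAGGAA, a core recognised by the myeloid factor PU.1, and TATAAA, the TATA box, each searched on both strands, with no overlap between the matches shown.
Il1rn, upstream start (chr2:24336710-24336859, plus strand): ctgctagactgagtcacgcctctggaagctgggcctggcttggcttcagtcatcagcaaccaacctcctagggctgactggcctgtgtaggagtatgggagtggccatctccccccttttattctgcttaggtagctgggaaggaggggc
Il1rn, downstream start (chr2:24345141-24345290, plus strand): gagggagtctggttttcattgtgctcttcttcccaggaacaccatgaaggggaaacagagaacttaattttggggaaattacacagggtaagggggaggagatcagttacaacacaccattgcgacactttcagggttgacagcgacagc
Casp1 (chr9:5298367-5298516, plus strand): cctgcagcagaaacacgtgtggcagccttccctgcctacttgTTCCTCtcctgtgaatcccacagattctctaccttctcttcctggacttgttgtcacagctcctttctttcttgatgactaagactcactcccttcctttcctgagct
Il1b (chr2:129371140-129371289, minus strand): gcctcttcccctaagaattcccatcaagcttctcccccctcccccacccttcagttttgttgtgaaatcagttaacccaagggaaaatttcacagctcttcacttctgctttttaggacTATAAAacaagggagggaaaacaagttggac
Il1r2 (chr1:40085943-40086092, plus strand): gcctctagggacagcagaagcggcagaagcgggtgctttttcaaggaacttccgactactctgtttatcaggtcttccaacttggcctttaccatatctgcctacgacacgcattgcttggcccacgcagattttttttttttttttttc

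The promoter of Casp1 held GAGGAA on the reverse strand and that of Il1b held TATAAA shortly before its start, while neither Il1rn stretch nor the Il1r2 stretch held either set of letters. In windows of 300 bases, 250 before and 50 after the start, GAGGAA was found in 4 of 15 windows of the 10 members (Il1a, Il33, Nlrp3 and Casp1), against 28.3% of all 32851 windows. TATAAA was found in 6 of the 15 (Il1a, Il1b, Il18, Il1rn and both of Il33), against 13.6% of all windows. The Il1rn match lay in a window of a further start, close to the downstream start shown. FPKM were given per gene, so transcripts from the different starts of Il1rn were not measured separately.

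Il1rn, the receptor antagonist, was the member with the largest difference and was lower in 14-3-3ζKO tissue. It stood at 0.832, 2.41, 0.730, 2.95 and 1.23 FPKM in 14-3-3ζKO replicates 1 to 5, and at 18.3, 4.03, 27.2, 37.1, 7.19 and 2.40 FPKM in wild-type replicates 1 to 6. Wild-type replicates 1, 3 and 4 were far above all others, and 5 of the 6 wild-type libraries exceeded every 14-3-3ζKO library. The groups overlapped, because wild-type replicate 6 lay below 14-3-3ζKO replicates 2 and 4. Means were 1.63 ± 0.996 FPKM in 14-3-3ζKO (SD, n = 5) and 16.0 ± 14.0 FPKM in wild-type tissue (SD, n = 6), so 10.2% of the wild-type level was present. The difference between 14-3-3ζKO and wild-type libraries came to -2.26 ± 0.62 (SE) in log2(FPKM + 1). The exact permutation test, two-sided, gave p = 0.0152 and, adjusted over the 86 loci, p = 0.0407. In this exact test 41 of the 86 loci were called lower (47.7%), and since the study had chosen the table by its own comparison of these libraries, the p is no independent evidence. In this bulk tissue, fewer cells of a type and less RNA per cell cannot be told apart.

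The call held in 4 of 11 runs with 1 library left out. Each such run had fewer arrangements, 210 without a 14-3-3ζKO library (smallest possible permutation p 0.00476) and 252 without a wild-type library, against 462. Without 14-3-3ζKO replicate 2 or 4 the log2 difference was larger, at -2.38 and -2.43, yet no locus of the table was called. A lost call in these runs therefore cannot be put down to Il1rn in the library left out. Without any single 14-3-3ζKO replicate the adjusted p of Il1rn in the exact permutation test lay between 0.0585 and 0.0788, and leaving out wild-type replicate 1 or 4 gave 0.0512 or 0.0525. The log2 difference stayed between -2.63 and -1.93 in all 11 such runs, and limma, which pools the spread over the 86 loci, gave adjusted p-values from 0.00331 to 0.0420. Wild-type replicates 1, 3 and 4 held 85.8% of the summed wild-type signal. They averaged 27.5 ± 9.38 FPKM (SD, n = 3), against 4.54 ± 2.44 FPKM in wild-type replicates 2, 5 and 6 (SD, n = 3). When these 3 high libraries were left out, a choice made with earlier results known, the log2 difference was -1.06 and the adjusted p 0.213 in the exact permutation test. This run had only 56 arrangements and a smallest possible permutation p of 0.0179, which limits what it can call.

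**Figure D1:**
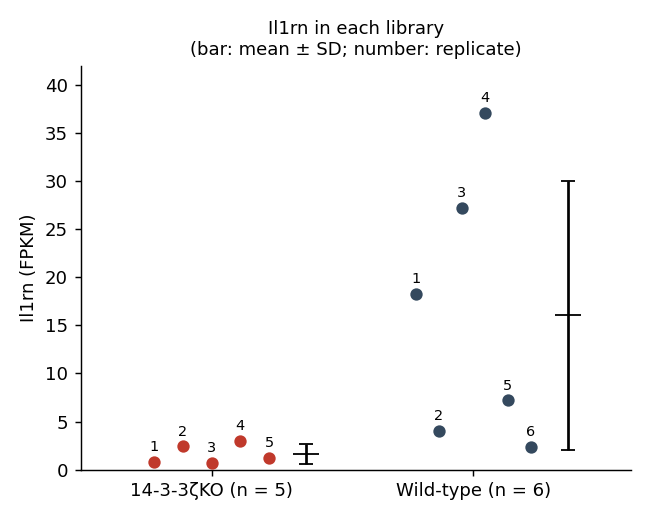
Il1rn in FPKM (vertical axis) in the 5 14-3-3ζKO libraries (left) and the 6 wild-type libraries (right), 1 point per library with its replicate number; the cross and bar give mean ± SD. The 14-3-3ζKO points lie between 0.730 and 2.95 FPKM, and wild-type replicates 1, 3 and 4 lie between 18.3 and 37.1 FPKM.

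The nearest profiles to Il1rn among the other 85 loci with library values belonged to Clec4a2, Clec4a3, Tyrobp, Daglb and Apobec1. Their standardized log2(FPKM + 1) values differed from those of Il1rn by 0.144 to 0.153 SD on average over the 11 libraries, against a median of 0.264 SD for the 85 loci and 0.517 SD for Ywhaz. Clec4a2, a C-type lectin receptor of myeloid cells, ranged over 2.77 to 13.3 FPKM in 14-3-3ζKO libraries. In wild-type tissue it ranged over 62.3 to 89.3 FPKM in replicates 1, 3 and 4 and over 9.26 to 16.5 FPKM in the other 3. Tyrobp, the signalling adaptor of many myeloid receptors, lay between 40.2 and 99.3 FPKM in 14-3-3ζKO libraries, between 613.2 and 910.8 FPKM in those 3 high wild-type libraries and between 78.6 and 167.7 FPKM in the remaining wild-type libraries. In both genes the same 3 wild-type libraries stood apart as for Il1rn, which was common in the table: in 64 of the 86 loci each of these 3 exceeded the 8 other libraries. The values of Clec4a2 and Clec4a3 are uncertain, since these paralogs could share reads.

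Some markers of several cell types were, like Il1rn, lower in 14-3-3ζKO tissue. Of the 10 macrophage markers listed, 9 were at least 2-fold lower in 14-3-3ζKO tissue, against 4.33% of all named loci above the floor. Their summed group values were 589.3 FPKM in 14-3-3ζKO and 3590 FPKM in wild-type tissue, and no marker was at 0. The exception was Cd14, a co-receptor for bacterial lipopolysaccharide, at 33.1 FPKM in 14-3-3ζKO and 26.9 FPKM in wild-type tissue. Library values existed for 4 of them (Emr1, Cd68, Mpeg1 and Trem2), whose sum ranged over 58.6 to 122.5 FPKM in 14-3-3ζKO libraries. In wild-type tissue it ranged over 1074 to 1350 FPKM in replicates 1, 3 and 4 and over 103.6 to 220.4 FPKM in the other 3. The same 3 wild-type libraries were high for markers of other cells. The mast cell proteases Cma1 and Tpsb2 summed to 2.02 to 16.5 FPKM in 14-3-3ζKO libraries, and to 69.0 to 247.8 FPKM in the 3 high and 5.37 to 18.4 FPKM in the other wild-type libraries. Itgax, which encodes the integrin CD11c, ranged over 1.25 to 13.1 FPKM in 14-3-3ζKO libraries, and over 65.2 to 107.8 FPKM in the 3 high and 3.999 to 11.8 FPKM in the other wild-type libraries. Lum, the matrix proteoglycan lumican of stromal cells, ranged over 6.57 to 22.3 FPKM in 14-3-3ζKO libraries, and over 100.2 to 117.7 FPKM in the 3 high and 13.1 to 22.9 FPKM in the other wild-type libraries. In the group values Lum was the 1 of 6 stromal markers that was at least 2-fold lower, and Itgax the 1 of 4 dendritic cell markers above the floor. The others lay within 2-fold, so neither gene stands for its list.

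The level of Il1rn relative to these markers depended on the marker. As a percentage of the macrophage sum it ranged over 0.938% to 3.36% in 14-3-3ζKO libraries and over 1.70% to 4.45% in wild-type libraries, with overlap. As a percentage of Lum it ranged over 5.22% to 13.2% in 14-3-3ζKO libraries and over 17.1% to 31.5% in wild-type libraries, without overlap. Lum was the 1 stromal marker of 6 with library values, and the other 5 lay within 2-fold in the group values. Nearest to 2-fold on the log2(FPKM + 1) scale was Pdgfra, at 8.65 FPKM in 14-3-3ζKO and 17.4 FPKM in wild-type tissue (log2 difference -0.93). Of the 6 stromal markers, 4 had a lower and 2 a higher group value in 14-3-3ζKO tissue. For the mast cell sum and for Itgax the percentages overlapped. All markers in these percentages have library values only because the study's own comparison had marked them as different, and Cd14 has none. The percentages are therefore a description, and no test was made on them. The part of any of these cells in the Il1rn values was not tested.

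**Figure D2:**
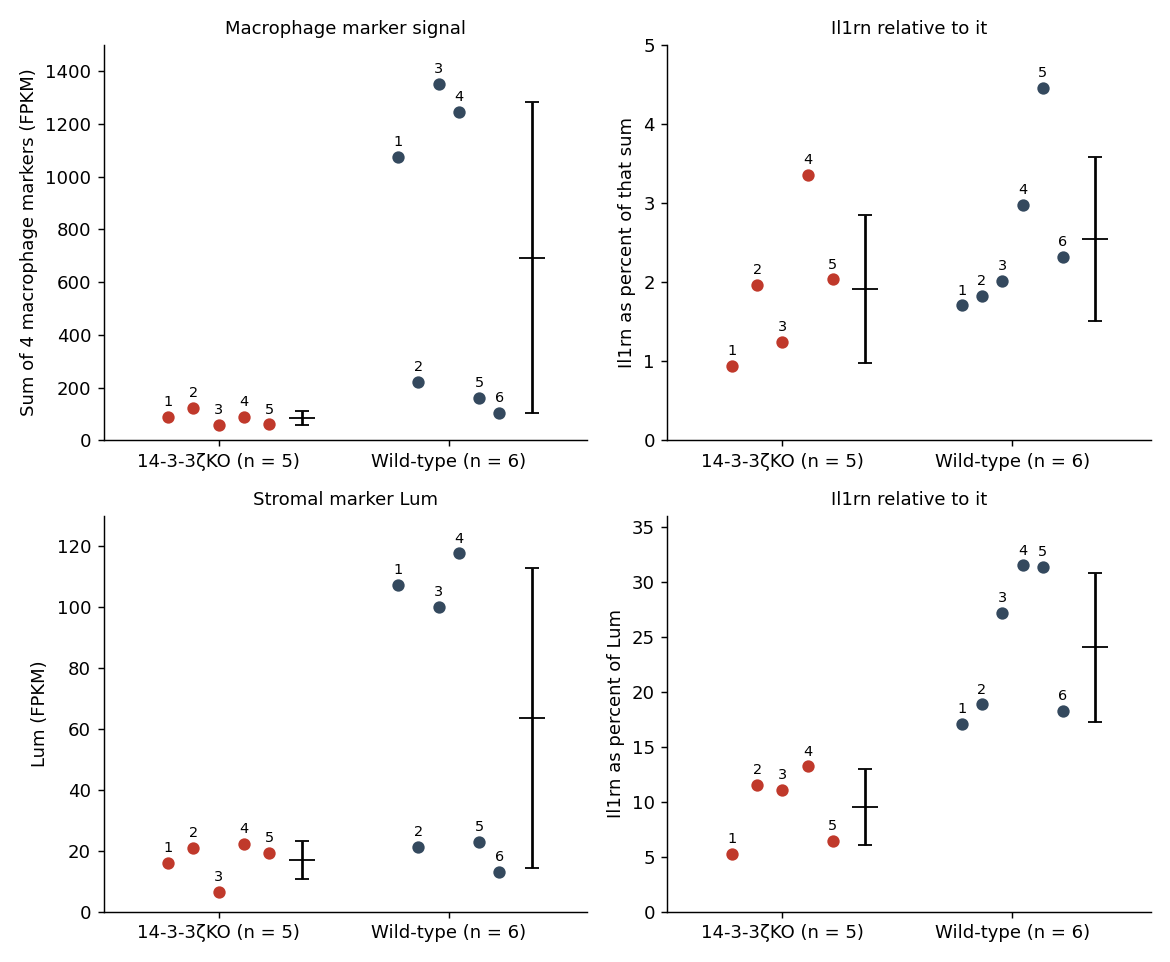
Top, summed FPKM of the macrophage markers Emr1, Cd68, Mpeg1 and Trem2 in each library (left) and Il1rn as a percentage of that sum (right); bottom, Lum in FPKM (left) and Il1rn as a percentage of Lum (right), with 14-3-3ζKO libraries (n = 5) left of wild-type libraries (n = 6), replicate numbers at the points, and crosses and bars for mean ± SD. Wild-type replicates 1, 3 and 4 are high in both left panels, and the percentages overlap between the groups for the macrophage sum (0.938% to 3.36% in 14-3-3ζKO and 1.70% to 4.45% in wild-type libraries) but not for Lum (5.22% to 13.2% in 14-3-3ζKO and 17.1% to 31.5% in wild-type libraries).

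The ligands that Il1rn opposes were present at low levels. Il1b, the secreted agonist, stood at 3.32 FPKM in 14-3-3ζKO and 1.74 FPKM in wild-type tissue, a log2 difference of 0.66 on the log2(FPKM + 1) scale. Il1a, the other agonist, stood at 0.372 FPKM in 14-3-3ζKO and 0.490 FPKM in wild-type tissue, under the floor of 1 FPKM that was set for the mean of both groups. The group value of Il1b was thus higher in 14-3-3ζKO tissue, where that of its antagonist was lower. The ratio of Il1rn to the sum of Il1a and Il1b, all in FPKM and so per length, was 0.442 in 14-3-3ζKO and 7.20 in wild-type tissue, and so 16.3 times lower in 14-3-3ζKO tissue. This ratio has no replicates, and its wild-type value inherits the 3 high libraries of Il1rn. Among 4 neutrophil markers with a mean of at least 1 FPKM, the calgranulin subunit S100a9 (23.1 FPKM in 14-3-3ζKO and 4.62 FPKM in wild-type tissue) and Retnlg (8.75 FPKM in 14-3-3ζKO and 0.350 FPKM in wild-type tissue) were higher in 14-3-3ζKO tissue, while S100a8 stood at 37.3 FPKM in 14-3-3ζKO and 28.3 FPKM in wild-type tissue. Csf3r, the receptor for the granulocyte growth factor G-CSF, lay the other way, at 1.65 FPKM in 14-3-3ζKO and 3.25 FPKM in wild-type tissue (log2 difference -0.68), and Retnlg passed the floor only through its 14-3-3ζKO value. The 8 listed neutrophil markers summed to 71.9 FPKM in 14-3-3ζKO and 36.8 FPKM in wild-type tissue, with Ly6g listed at 0 in 14-3-3ζKO tissue. Neutrophils are a known source of both Il1b and Il1r2 transcripts, and the part of these cells in either value was not tested.

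Il18 and Il33 differed little between the group values. Il18, whose product drives interferon-γ production, stood at 7.67 FPKM in 14-3-3ζKO and 6.74 FPKM in wild-type tissue (log2 difference 0.16). Il33, an alarmin stored in the nucleus of stromal and mesothelial cells that acts on innate lymphoid cells of fat, stood at 5.09 FPKM in 14-3-3ζKO and 4.43 FPKM in wild-type tissue (log2 difference 0.16). Both were more abundant per length than Il1b in both genotypes. Without replicates it cannot be said whether these differences exceed the spread between animals.

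Among the receptors, the decoy had the largest difference and was higher in 14-3-3ζKO tissue. Il1r2 stood at 2.83 FPKM in 14-3-3ζKO and 0.536 FPKM in wild-type tissue, a log2 difference of 1.32 on the log2(FPKM + 1) scale and a ratio of 5.27 between the FPKM themselves. It passed the floor of 1 FPKM only through its 14-3-3ζKO value. A second row of the same symbol, with its own identifier but the same coordinates (chromosome 1, 40133073 to 40197119), stood at 0.123 FPKM in 14-3-3ζKO and 0.158 FPKM in wild-type tissue. Il1r1, the signalling receptor, was the most abundant member in 14-3-3ζKO tissue at 36.9 FPKM, against 21.4 FPKM in wild-type tissue (log2 difference 0.76). Il1rap, the accessory chain that Il1r1 shares with the IL-33 receptor, stood at 1.73 FPKM in 14-3-3ζKO and 1.79 FPKM in wild-type tissue (log2 difference -0.03). Per length, Il1r1 was thus 21.3 times as abundant as Il1rap in 14-3-3ζKO and 12.0 times in wild-type tissue. The ratio of Il1r1 to Il1r2 was 13.0 in 14-3-3ζKO and 39.9 in wild-type tissue. It has no replicates, leaves out the second row of Il1r2, and divides by 0.536 FPKM in wild-type tissue.

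Of the inflammasome members, Casp1 was lower in 14-3-3ζKO tissue and Nlrp3 was weakly expressed in both genotypes. Casp1, the protease that matures IL-1β and IL-18, stood at 13.6 FPKM in 14-3-3ζKO and 30.1 FPKM in wild-type tissue, a log2 difference of -1.09. Casp1 was the most abundant member in wild-type tissue. Nlrp3, the sensor that is itself induced by NF-kB, stood at 0.568 FPKM in 14-3-3ζKO and 0.743 FPKM in wild-type tissue, under the floor. Neither had values per library, so whether wild-type replicates 1, 3 and 4 carried the Casp1 value as they did that of Il1rn was not tested. The summed macrophage markers were lower in 14-3-3ζKO tissue as well (589.3 FPKM, against 3590 FPKM in wild-type tissue), and their part in the Casp1 value was not tested.

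Of the 10 members, 8 had a mean of at least 1 FPKM, and of these 2 were at least 2-fold lower in 14-3-3ζKO tissue (Il1rn and Casp1), 1 was at least 2-fold higher (Il1r2) and 5 lay within 2-fold. Over all 14189 named loci above the same floor, 4.33% were at least 2-fold lower and 7.85% at least 2-fold higher. The members had a median log2 difference of 0.16, against 0.02 for all named loci. The log2 difference of Il1rn in the group values, -2.69, was undercut by 49 of the 14189 loci (0.345%), that of Casp1 by 530 (3.74%), while that of Il1r2 was exceeded by 5.13%. The group value of Il1rn differs from its library value of -2.26 because the first takes the logarithm of the group means. By level, the order in 14-3-3ζKO tissue was Il1r1, Casp1, Il18, Il33, Il1b, Il1r2, Il1rap, Il1rn, Nlrp3 and Il1a. In wild-type tissue it was Casp1, Il1r1, Il1rn, Il18, Il33, Il1rap, Il1b, Nlrp3, Il1r2 and Il1a. Which neighbours in these orders differ beyond their spread cannot be given for single values per group.

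**Figure D3:**
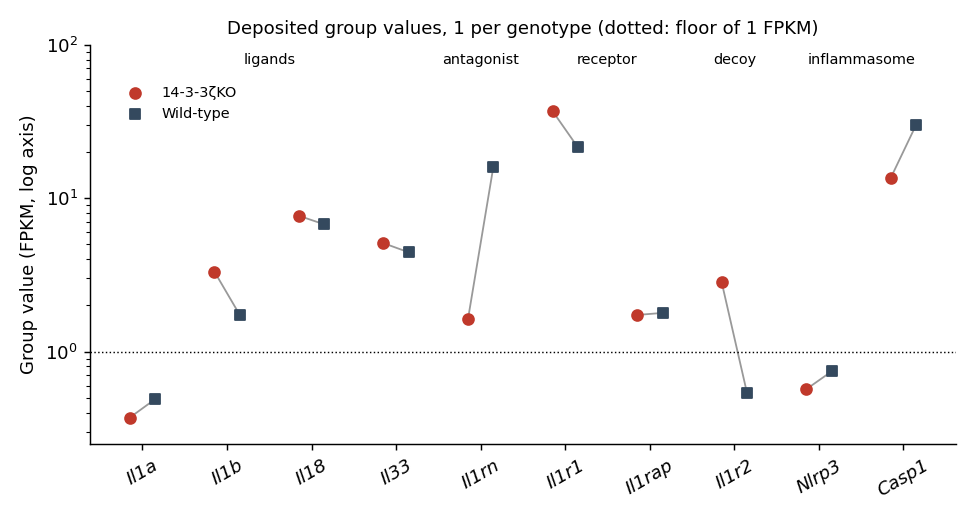
Deposited group value in FPKM (vertical axis, log scale) of the 10 members, with 14-3-3ζKO (circle) left of wild-type (square) for each gene and 1 value per genotype without error. Il1rn (1.63 FPKM in 14-3-3ζKO and 16.0 FPKM in wild-type tissue) and Casp1 (13.6 FPKM in 14-3-3ζKO and 30.1 FPKM in wild-type tissue) are lower in 14-3-3ζKO tissue, Il1r2 (2.83 FPKM in 14-3-3ζKO and 0.536 FPKM in wild-type tissue) is higher, and Il1a and Nlrp3 lie under the dotted floor of 1 FPKM.

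The rest of the pathway was described by lists. Their counts past 2-fold stand beside the shares of all named loci above the floor, 4.33% lower and 7.85% higher. None of the 5 other IL-1 family ligands, the IL-36 group and Il1f10, reached a mean of 1 FPKM, the highest being Il1f9 (IL-36γ) at 0.260 FPKM in 14-3-3ζKO and 0.445 FPKM in wild-type tissue, then Il1f5, the IL-36 receptor antagonist, at 0.00401 FPKM in 14-3-3ζKO and 0.109 FPKM in wild-type tissue. Of 8 other receptors and binding proteins, 5 passed the floor and all 5 lay within 2-fold, with a median log2 difference of -0.11. Il18bp, the soluble inhibitor of IL-18, stood at 15.1 FPKM in 14-3-3ζKO and 20.1 FPKM in wild-type tissue, in a row shared with Rnf121, so its value is uncertain. Sigirr, an inhibitory receptor of the family, stood at 5.42 FPKM in 14-3-3ζKO and 4.89 FPKM in wild-type tissue, and Il1rl1, the IL-33 receptor, at 1.08 FPKM in 14-3-3ζKO and 2.70 FPKM in wild-type tissue (log2 difference -0.83).

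All 17 genes of IL-1 receptor signalling passed the floor and none differed by 2-fold, with a median log2 difference of 0.03. For all named loci the shares were 4.33% lower and 7.85% higher. The kinase Irak1 stood at 35.0 FPKM in 14-3-3ζKO and 40.01 FPKM in wild-type tissue, Chuk, a kinase of the NF-kB pathway, at 39.7 FPKM in 14-3-3ζKO and 28.2 FPKM in wild-type tissue, and Myd88, the shared adaptor, at 24.3 FPKM in 14-3-3ζKO and 26.4 FPKM in wild-type tissue. The value nearest to 2-fold was that of Irak2, a kinase that sustains the signal, at 40.5 FPKM in 14-3-3ζKO and 20.6 FPKM in wild-type tissue (log2 difference 0.94).

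Of 19 rows for other inflammasome genes, 12 passed the floor, and of these 2 were at least 2-fold lower, 1 was higher and 9 lay within 2-fold (median log2 difference -0.11). The shares over all named loci were 4.33% lower and 7.85% higher, and counts this small cannot be set apart from them. Pycard, the adaptor between sensor and caspase-1, stood at 7.88 FPKM in 14-3-3ζKO and 19.2 FPKM in wild-type tissue (log2 difference -1.19). Naip2, a sensor of bacterial secretion system proteins, stood at 0.930 FPKM in 14-3-3ζKO and 4.13 FPKM in wild-type tissue (log2 difference -1.41). As a member of a multigene family it is uncertain, and it passed the floor only through its wild-type value. Nlrc4, the partner of the Naip proteins, stood at 0.390 FPKM in 14-3-3ζKO and 1.36 FPKM in wild-type tissue, under the floor. Txnip, a binding partner of thioredoxin that has been linked to NLRP3, stood at 1026 FPKM in 14-3-3ζKO and 484.1 FPKM in wild-type tissue (log2 difference 1.08). Nek7, a kinase needed for NLRP3 assembly, stood at 29.2 FPKM in 14-3-3ζKO and 26.2 FPKM in wild-type tissue, Gsdmd, the pore-forming protein of pyroptosis, at 13.3 FPKM in 14-3-3ζKO and 14.0 FPKM in wild-type tissue, and Casp4, the sensor of intracellular lipopolysaccharide, at 20.9 FPKM in 14-3-3ζKO and 12.9 FPKM in wild-type tissue. Casp1, Pycard and Naip2 thus had group values at least 2-fold lower in 14-3-3ζKO tissue and Txnip a higher one, while Nek7, Gsdmd and Casp4 lay within 2-fold.

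Of 18 genes that IL-1 is known to induce, 15 passed the floor, 1 was at least 2-fold lower, 1 higher and 13 lay within 2-fold. These counts are near the shares of all named loci, 4.33% lower and 7.85% higher. Whatever the size, 11 of the 15 had a lower group value in 14-3-3ζKO tissue and 4 a higher one, with a median log2 difference of -0.23, against 47.9% lower and a median of 0.02 over all named loci. Hp, encoding haptoglobin, stood at 898.0 FPKM in 14-3-3ζKO and 1836 FPKM in wild-type tissue (log2 difference -1.03), and Lcn2, encoding lipocalin 2, at 791.1 FPKM in 14-3-3ζKO and 1202 FPKM in wild-type tissue. Lower values were also found for the chemokine Ccl2 (58.2 FPKM in 14-3-3ζKO and 94.8 FPKM in wild-type tissue) and the matrix protease Mmp3 (2.27 FPKM in 14-3-3ζKO and 5.24 FPKM in wild-type tissue). The 4 on the higher side were Nfkbia, Nfkbiz, Cxcl2 and Ptgs2. Ptgs2 (1.51 FPKM in 14-3-3ζKO and 0.686 FPKM in wild-type tissue) passed the floor only through its 14-3-3ζKO value. Nos2, on the lower side (0.956 FPKM in 14-3-3ζKO and 1.71 FPKM in wild-type tissue), passed it only through its wild-type value. Nfkbiz, an NF-kB cofactor induced by IL-1, stood at 11.9 FPKM in 14-3-3ζKO and 5.25 FPKM in wild-type tissue (log2 difference 1.04), and Nfkbia, the NF-kB inhibitor, at 96.6 FPKM in 14-3-3ζKO and 48.6 FPKM in wild-type tissue (log2 difference 0.98). Il6, a classical target, stood at 1.07 FPKM in 14-3-3ζKO and 0.251 FPKM in wild-type tissue, under the floor.

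**Figure D4:**
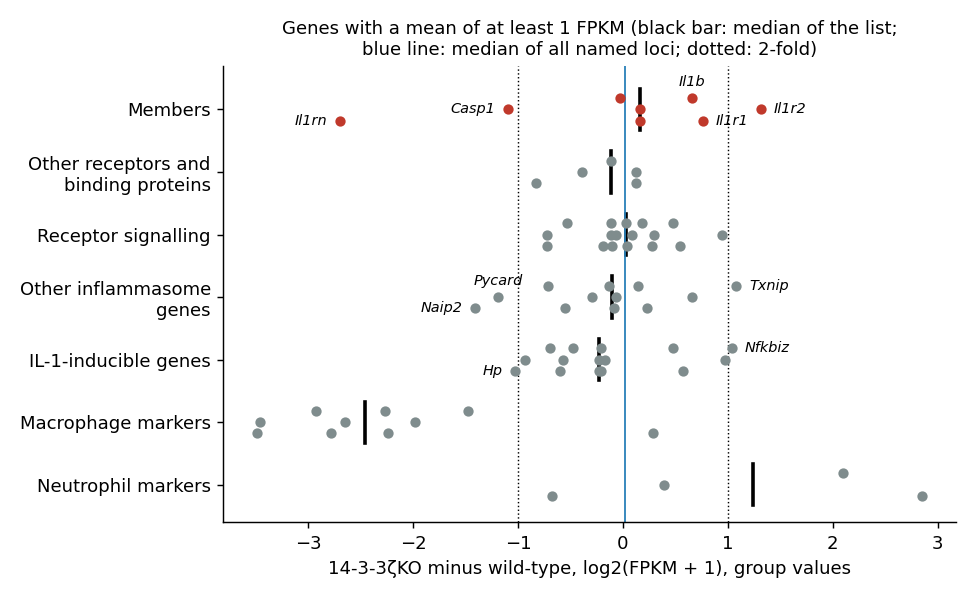
Difference between 14-3-3ζKO and wild-type group values on the log2(FPKM + 1) scale (horizontal axis) for the members (red) and for genes of 6 lists (grey), each point 1 gene with a mean of at least 1 FPKM; black bars are list medians, the blue line is the median of all named loci, and dotted lines mark 2-fold. Il1rn (-2.69) lies within the range of the macrophage markers, which runs from -3.49 (Trem2) to 0.29 (Cd14) with a median of -2.46. Casp1 (-1.09), Il1rap (-0.03), Il18 (0.16) and Il33 (0.16) lie within that range too. The mast cell markers, not drawn, had a median of -2.57. The signalling genes (median 0.03) all lie within 2-fold.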

How the data were processed

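RNA of gonadal white fat was sequenced as paired reads, which the authors aligned with TopHat2 2.0.11 to build NCBIM37 and quantified with Cufflinks 2.2.0 and Cuffdiff. The authors deposited FPKM, 1 value per genotype for 42815 loci and 1 per library for 86. No source used here states how libraries were scaled. The columns of the authors' own comparison (fold, statistic, p and q) were not used, except to see that all 86 loci with library values had been marked as different, so members were not tested from them. Samples were grouped by title, and p-values measure only the spread between these samples.

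For library values in log2(FPKM + 1), group means were compared by enumerating all 462 arrangements of the libraries (exact permutation test, two-sided), and p-values were adjusted over the 86 loci after Benjamini and Hochberg. Group values were compared without a test. A locus was called past 2-fold at a difference of at least 1 in log2(FPKM + 1), if the mean of both groups was at least 1 FPKM. The added 1 shrinks the differences of weakly expressed genes. The row of highest mean FPKM stood for a symbol with several rows. Alternatives were a pseudocount of 0.1, no floor or a floor of 5 FPKM, 1.5-fold and 3-fold thresholds, recentring, summed rows, limma 3.58.1 (R 4.3.3) with and without the replicate number as a block, and leaving out libraries.

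The members and lists were chosen with earlier results of these data known. Named genes were the 10 members, Ywhaz, the 2 most abundant genes of each list and, in pathway lists, up to 4 past 2-fold, and the 5 loci nearest in profile to Il1rn. Stromal and endothelial examples under this rule were Dcn (518.2 FPKM in 14-3-3ζKO and 511.6 FPKM in wild-type tissue), Cd34 (41.7 FPKM in 14-3-3ζKO and 48.7 FPKM in wild-type tissue), Pecam1 (52.9 FPKM in 14-3-3ζKO and 45.1 FPKM in wild-type tissue) and Cdh5 (38.2 FPKM in 14-3-3ζKO and 38.4 FPKM in wild-type tissue), the remaining markers being Upk3b (10.4 FPKM in 14-3-3ζKO and 7.69 FPKM in wild-type tissue), Zbtb46 (5.19 FPKM in 14-3-3ζKO and 4.27 FPKM in wild-type tissue) and Thy1 (9.17 FPKM in 14-3-3ζKO and 11.1 FPKM in wild-type tissue). Il1rl1, Irak2, Myd88, Nlrc4, Gsdmd, Casp4, Nfkbia, Il6, Cd14, Retnlg, Csf3r, Ly6g, Lep, Lum, Pdgfra, Ccl2, Mmp3, Cxcl2, Ptgs2, Nos2 and Fcer1a were named after their values were seen. The tests were tried on simulated data with 40 changed loci and independent noise. The simulation had no libraries that were high together, as wild-type replicates 1, 3 and 4 were here, so it does not cover that feature. Software was python 3.11.15, numpy 2.4.6, pandas 2.3.3 and matplotlib 3.10.9.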

Additional observations from a re-analysis of the deposited data

How the results depend on the processing

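Il1rn was lower in 14-3-3ζKO tissue under every alternative run. With 1 library left out its log2 difference ranged from -2.63 to -1.93, and the adjusted p of the exact permutation test was under 0.05 in 4 of 11 runs. With only wild-type replicates 2, 5 and 6 beside all 14-3-3ζKO libraries, an alternative added with earlier results known, the difference was -1.06 (exact permutation test, adjusted p = 0.213). The number of the 86 loci passing the exact permutation test, 56 with all libraries, ranged from 0 to 75 with 1 library left out. It was 0 without 14-3-3ζKO replicate 1, 2, 4 or 5 and with wild-type replicates 2, 5 and 6 only, where 17 to 68 loci had an unadjusted p under 0.05 and limma called 5 to 71. These runs had 210 or 56 arrangements, against 462 with all libraries, so the exact test was coarser in them. Leaving out 14-3-3ζKO replicate 3 gave 9 loci, and leaving out wild-type replicate 1 or 4 gave 14 or 17. The count of members past 2-fold, 3 as reported, was 5 at a 1.5-fold threshold (Il1b and Il1r1 added on the higher side, against 10.6% of named loci lower and 15.6% higher) and 1 at a 3-fold threshold (Il1rn). It was 2 with a floor of 5 FPKM and 3 with a pseudocount of 0.1, without a floor or recentred. All 30 member folds recomputed with another pseudocount, recentring or summed rows kept their side of 2-fold. The replicate numbers were not taken as pairs, since deviations of same-numbered libraries correlated between -0.49 and 0.57 over 5 pairs and no library correlated best with its own number. limma with the number as a replicate block left out wild-type replicate 6, which has no 14-3-3ζKO library of its number. It gave Il1rn a difference of -2.63 (limma, adjusted p = 0.00433) and called 80 loci. Without wild-type replicate 6 and without the block, the difference was also -2.63 (limma, adjusted p = 0.00331) and 81 loci were called. With all libraries and no block limma called 74 loci, and Il1rn was called in each of these limma runs. The other 9 members have no library values, so depth and spread limit what their single values can show.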
